A study of Canis lupus familiaris with 5 samples.

Results

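Matricellular proteins are secreted into the extracellular matrix without building its fibres, and they change how cells attach to it, move and respond to growth factors. The 9 genes described here encode 7 of them, namely tenascin-C (TNC), tenascin-X (TNXB), thrombospondin-1 (THBS1), thrombospondin-2 (THBS2), periostin (POSTN), SPARC and osteopontin (SPP1), together with the large proteoglycan versican (VCAN) and the elastic fibre protein elastin (ELN). They were taken from a list of names, and all 9 were found among the 35120 gene names of the count tables after numeric suffixes were removed. Nuclear RNA was counted in 5 droplet single-nucleus libraries of cephalic vein, a superficial forelimb vein, from male mongrel dogs of 25 kg under general anaesthesia. Control libraries held an undistended piece of vein (dogs 1 and 2). Distended libraries held vein of the same dogs after it had been filled with saline that carried papaverine (60 mg) and bivalirudin (43 mg), with distension and harvest taking about 30 minutes. The grafted library (dog 1) held such a distended vein 24 h after it had been sewn to the carotid artery as a bypass, with systemic bivalirudin before the anastomoses. The graft is thus 1 vein of 1 dog, and the time since distension, the surgery, the drug and the arterial flow changed together in it and cannot be told apart.

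Smooth muscle cells and fibroblasts make much of the matrix of a vein wall. Elastin forms the core of its elastic fibres. Versican binds hyaluronan and makes a loose, hydrated matrix. Tenascin-C and the thrombospondins are known for being induced by injury, stretch and inflammation, and tenascin-X is a tenascin of quiescent connective tissue.

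The kept nuclei numbered 765 and 1036 in the control libraries of dogs 1 and 2, 2108 and 241 in the distended ones and 2705 in the graft. Their median depth, counted in unique molecular identifiers (UMIs, each standing for 1 captured transcript) outside 4 dominant LOC features, was 274 to 545.5 per nucleus in the other libraries and 2350 in the graft. Those 4 features held 71.0% and 65.2% of UMIs in the controls, 39.8% and 28.0% in distended vein and 3.00% in the graft. Nuclei formed 19 clusters, which were named "-like" by marker genes, with the 9 genes kept out of the clustering. The names rest on markers counted in these nuclei, and 4 clusters stayed unnamed. They held 74.5% of the nuclei of control dog 1, 50.6% of distended dog 2 and 6.74% to 16.9% of the other libraries. In control dog 1, 549 nuclei lay in cluster 0. It had 8 of 15 endothelial markers and was led by the erythroid gene HBM. At resolution 1.5 a cluster led by SCN1A, with 395 nuclei of control dog 1, was named endothelial-like. Another led by HBM, with 169 nuclei of that library, stayed unnamed. Endothelial-like values of control dog 1 thus rest on 93 nuclei. Of the nuclei of the distended library of dog 2, 141 of 241 (58.5%) lay in 6 clusters that the graft held by majority, against 0.427% to 1.74% of the nuclei of the other libraries. Any pair of libraries shared 0 to 2 cell barcodes. Macrophage/monocyte-like nuclei made up 18.5% of the graft and 1.31% to 5.79% of the others. Smooth muscle-like nuclei numbered 41 and 19 in the controls, 44 and 1 in distended vein and 36 in the graft.

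In whole vein, that is in UMIs summed over all nuclei of a library, THBS1 and TNC were highest in the graft, and ELN and TNXB were highest in control dog 2 and distended dog 1. Whole-vein levels are given as CPM, counts scaled by edgeR's TMM factors to a common total. In such sums, fewer cells of a type and less RNA per cell cannot be told apart. TNC stood at 95.4 and 31.9 CPM in control vein, 27.2 and 16.2 in distended vein and 146 in the graft. The graft library was above both controls, and both distended libraries were below them. THBS1, an activator of latent TGF-beta and an inhibitor of vessel growth, stood at 304 and 117 CPM in controls, 118 and 775 in distended vein and 1180 in the graft. The graft was again the highest library, followed by the distended library of dog 2. THBS2, its close relative, was rare, with 2 and 13 UMIs in controls, 122 and 1 in distended vein and 15 in the much deeper graft library.

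**Figure D1:**
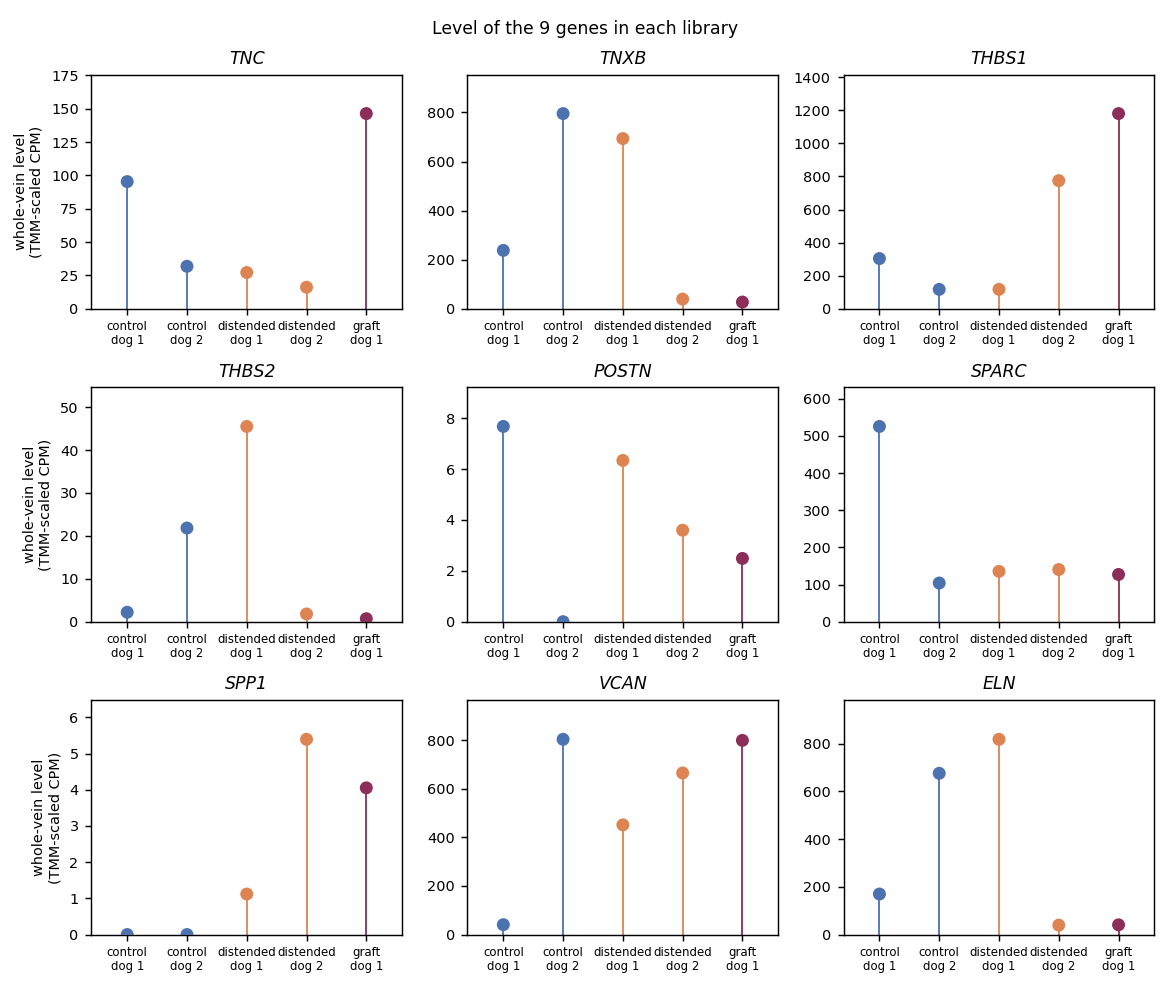
Whole-vein level of each gene in TMM-scaled CPM (vertical axes start at 0 and differ between genes), 1 point for each library, coloured by group. THBS1 was highest in the graft (1180) and next in distended dog 2 (775), while TNXB and ELN were lowest in these libraries.

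SPARC, a collagen-binding glycoprotein, stood at 525 CPM in control dog 1 and between 104 and 140 in the other libraries, so that 1 control stood apart. POSTN, which binds collagen and other matricellular proteins, gave 7 and 0 UMIs in controls, 17 and 2 in distended vein and 54 in the graft. In CPM its levels were 7.68 and 0, 6.34 and 3.60, and 2.49. The graft was thus below every library but control dog 2, which had no POSTN UMI. SPP1, an adhesive ligand of integrins and CD44, gave 0 UMIs in both controls, 3 in each distended library and 88 in the graft. At a floor of 3 counts over the controls the graft level of SPP1 was at least 2.04-fold higher. That limit was 1.23 without control dog 2 and 0.805 without control dog 1, where it no longer shows a higher level. TNXB stood at 238 and 795 CPM in controls, 694 and 39.6 in distended vein and 27.4 in the graft. ELN stood at 170 and 676 in controls, 819 and 39.6 in distended vein and 40.8 in the graft. For both, the graft was below the controls, as was distended dog 2. Distended dog 1 lay between the controls for TNXB and above them for ELN. VCAN stood at 40.6 and 804 in controls, 452 and 665 in distended vein and 799 in the graft. In CPM the graft thus lay within the range of the controls, just under control dog 2. Per 10000 UMIs outside the dominant features, VCAN gave 0.741 and 14.1 in controls, 8.09 and 13.2 in distended vein and 15.9 in the graft. By that measure the graft was the highest library. Its counting interval (15.7 to 16.2) lay above that of control dog 2 (12.9 to 15.4). The place of the graft thus depends on the scaling.

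None of these whole-vein differences passed the test. With edgeR's quasi-likelihood test and Benjamini-Hochberg adjustment at 0.05, 0 of 13165 genes (0%) were called in each of the 3 comparisons. Unadjusted p was under 0.05 for 186 genes in distended against control, 1160 in grafted against control and 724 in grafted against distended. DESeq2 called 1, 115 and 30 genes in that order, none of them among the 9. Single libraries moved these counts. Without distended dog 1, 219 genes were called in distended and 649 in grafted against control, with TNXB among the latter (-4.19, SE 1.26, adjusted p = 0.0234, edgeR). Without distended dog 2, 375 genes were called in grafted against control and 358 against distended vein, with THBS2 among the latter (-5.99, SE 1.37, adjusted p = 0.0195, edgeR). Of the 9 genes, 3 were higher (TNC, THBS1, SPP1) and 3 lower (TNXB, THBS2, ELN) in the graft than in both controls. Of all tested genes, 43.2% were higher and 32.3% lower in that sense. Against both distended libraries the graft was higher for 3 genes (TNC, THBS1, VCAN) and lower for 4 (TNXB, THBS2, POSTN, SPARC), beside 34.4% and 27.1% of all genes. The median log2 fold change of the 9 genes in grafted against control was -0.74, beside 0.12 over all tested genes, and is the same with SPP1 at its limit.

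The levels follow a gene and the cell makeup of a library together, and the share of nuclei with at least 1 UMI follows depth as well. After every nucleus was thinned to 200 UMIs outside the dominant features, VCAN was found in 1.83% and 14.0% of control nuclei, 13.4% and 26.4% of distended nuclei and 27.0% of graft nuclei. Unthinned, these shares were 3.66%, 15.3%, 27.8%, 43.6% and 81.4%. THBS1 was found in 4.41% and 2.80% of thinned control nuclei, 2.39% and 21.3% of distended nuclei and 19% of graft nuclei. Unthinned, they were 11%, 4.05%, 5.27%, 41.5% and 66.2%. ELN was found in 5.33% and 17.4% of thinned control nuclei, 22.8% and 1.26% of distended nuclei and 1.11% of graft nuclei (unthinned 13.6%, 24.1%, 38.9%, 4.98% and 11.7%). Thinning left out 108 and 287 control, 61 and 2 distended and 1 graft nuclei that were shallower. At equal depth the distended library of dog 2 was thus close to the graft for all 3 genes.

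**Figure D2:**
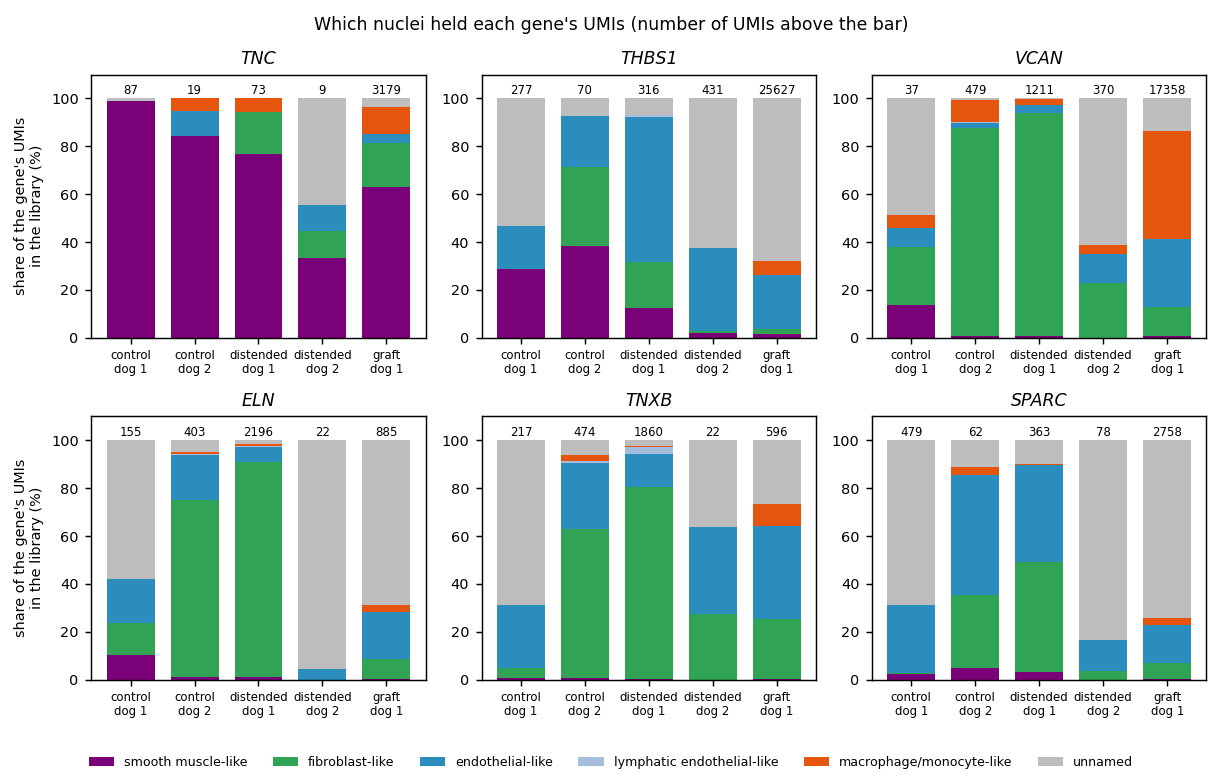
Share of each gene's UMIs that fell in each cell class, 1 bar for each library, with the number of UMIs above it. Most TNC UMIs lay in smooth muscle-like nuclei of both controls (98.9% and 84.2%), distended dog 1 (76.7%) and the graft (63.0%), whereas 45.0% of graft VCAN lay in macrophage/monocyte-like nuclei.

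In 4 of the 5 libraries TNC lay mostly in smooth muscle-like nuclei. Smooth muscle-like nuclei held 86 of 87 TNC UMIs in control dog 1, 16 of 19 in control dog 2, 56 of 73 in distended dog 1 and 2002 of 3179 in the graft. Distended dog 2 had 1 such nucleus, with 3 of its 9 TNC UMIs, and 4 UMIs lay in unnamed nuclei. Within these nuclei TNC gave 33.3 (95% counting interval 26.7 to 41.2) and 23.7 (13.5 to 38.4) UMIs per 10000 UMIs outside the dominant features in controls. It gave 18.9 (14.3 to 24.5) in distended dog 1 and 293 (279.9 to 306) in the graft. The graft rate was above the other 3 and their intervals did not overlap it. The graft's smooth muscle-like nuclei formed a cluster of their own (36 nuclei, cluster 17), and those of the other libraries formed cluster 1. TNC was among the leading genes of cluster 17 beside the smooth muscle genes MYOCD, PDLIM3 and ACTG2. No test was run, because only 3 libraries had at least 20 such nuclei, each of another group, so these values carry counting error only. In the graft 32 of 36 nuclei held TNC, 1 of them with 216 UMIs, and 45.8% of all graft TNC UMIs lay in 10 nuclei.

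TNC rose in fibroblast-like nuclei of the graft. Its UMIs there were 0 in 48 nuclei and 0 in 387 nuclei of the controls, 13 in 1211 and 1 in 51 nuclei of distended vein, and 586 in 780 nuclei of the graft. The graft level was at least 10.8-fold above controls at a floor of 3 counts over the group (adjusted p = 0.0258, edgeR). In fibroblast-like nuclei smooth muscle markers summed to 815 and 370 CPM in controls, 367 and 14.8 in distended vein and 45.2 in the graft. In whole vein they summed to 796 and 532 CPM in controls, 524 and 66.5 in distended vein and 83.8 in the graft. The graft was thus below both controls there too. The part of RNA from smooth muscle cells in the TNC level was not tested. Against distended vein the log2 fold change of TNC was 3.86 (SE 1.22) and missed the threshold (adjusted p = 0.0529, edgeR). It passed with RLE scaling (0.0397), without a filter (0.0329), without control dog 1 (0.0326) or dog 2 (0.0361), without distended dog 2 (0.0190) and with at least 200 genes per nucleus (0.0402). The call against control was not made by DESeq2 (adjusted p = 0.134), without a filter on low counts (0.0777), without control dog 1 (0.0693) or without control dog 2 (0.864, where the limit fell to 1.33-fold). It was also lost with the dog as a block (0.659), with the dominant features left out (0.133) and with at least 200 genes per nucleus (0.654).

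In endothelial-like nuclei TNC stayed rare. It gave 0 and 2 UMIs in controls, 0 and 1 in distended vein and 115 in 928 deep graft nuclei, a rate of 0.269 per 10000. The ratio of graft to control was 3.05 with a counting interval of 0.824 to 25.5. That of graft to distended vein was 13.7 (2.42 to 547), resting on 1 distended UMI, and 2.21 without distended dog 1. In macrophage/monocyte-like nuclei of the graft it gave 357 UMIs in 77 of 500 nuclei, a rate of 2.88 per 10000. Shares of nuclei with TNC in the graft were 88.9% of smooth muscle-like, 18.1% of fibroblast-like, 15.4% of macrophage/monocyte-like and 6.90% of endothelial-like nuclei, at median depths of 1447.5, 1801.5, 1322 and 3992 UMIs outside the dominant features. The lowest share thus lay in the deepest class, and the part of RNA from outside the nuclei in these shares was not tested.

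**Figure D3:**
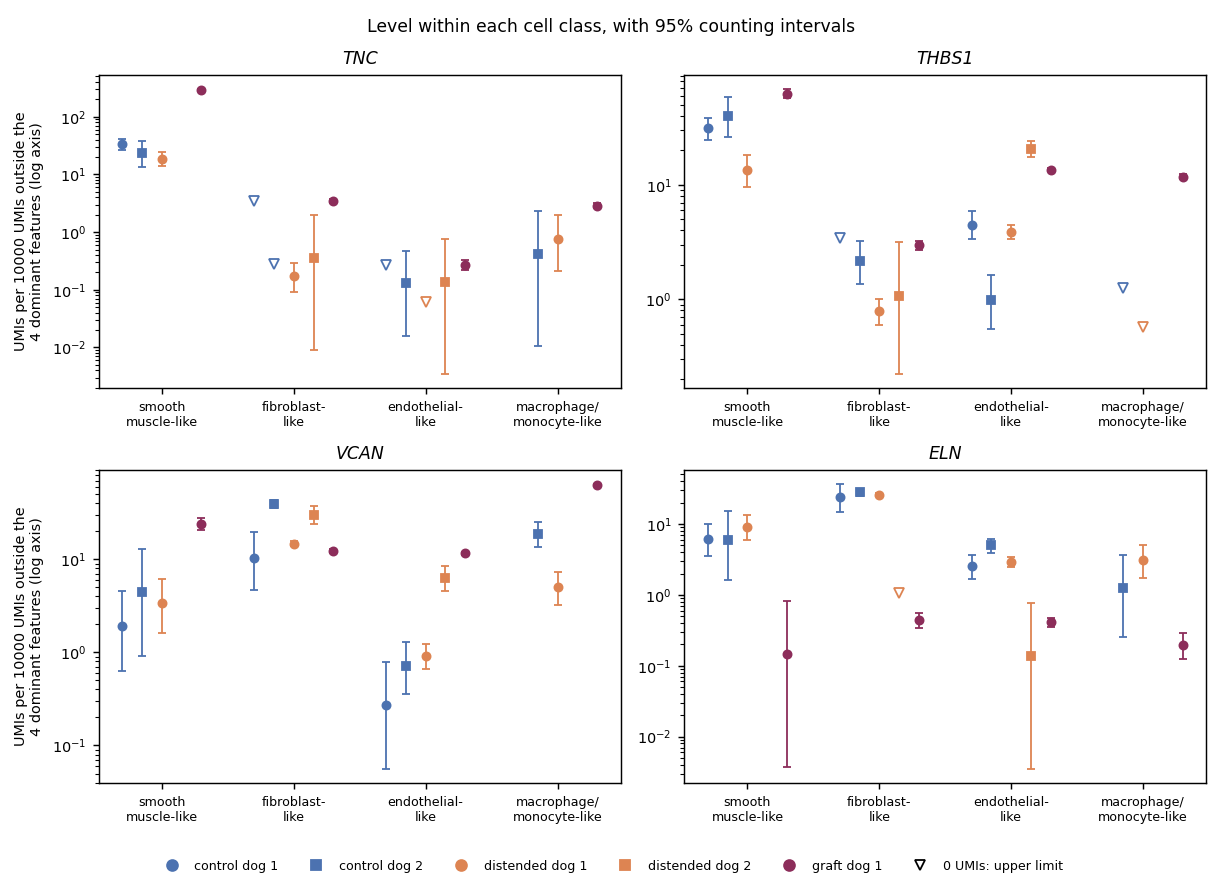
UMIs of TNC, THBS1, VCAN and ELN per 10000 UMIs outside the 4 dominant features in 4 cell classes (log axes), with 95% counting intervals, for libraries with at least 19 nuclei of a class. Open triangles are upper limits from a floor of 3 UMIs where 0 were counted. TNC in smooth muscle-like nuclei was highest in the graft (293), and ELN in fibroblast-like nuclei was 24.0, 27.9 and 25.8 in controls and distended dog 1 and 0.438 in the graft. Distended dog 2 had 0 ELN UMIs in 51 fibroblast-like nuclei and is shown as an upper limit.

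THBS1 was spread over several classes. In smooth muscle-like nuclei it gave 31 (24.6 to 38.6) and 39.9 (26.3 to 58.1) UMIs per 10000 in controls, 13.5 (9.63 to 18.4) in distended dog 1 and 62.7 (56.9 to 68.9) in the graft. In endothelial-like nuclei the rates were 4.49 and 0.982 in controls, 3.90 and 20.6 in distended vein and 13.6 in the graft. Distended dog 2 was the highest there, with 150 UMIs in 28 of 61 nuclei, and the graft had 5798 UMIs in 789 of 928. The log2 fold change of THBS1 in grafted against control endothelial-like nuclei was 2.14 (SE 0.96, adjusted p = 0.254, edgeR), and it was not called. Macrophage/monocyte-like nuclei held THBS1 in the graft (1465 UMIs in 316 of 500 nuclei), while 0 UMIs were counted in the 60 nuclei of control dog 2 and the 101 of distended dog 1. In fibroblast-like nuclei the graft gave 501 UMIs in 314 of 780 nuclei, a rate of 2.96, beside 2.15 in control dog 2 and 0.786 in distended dog 1.

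At the resolution used, most graft THBS1 lay outside the named classes. An unnamed cluster of 262 graft nuclei (cluster 9, median depth 5254.5 UMIs) held 17196 of the 25627 THBS1 UMIs of the graft, 67.1%, in 231 nuclei. Its leading genes with a symbol were NPPC, a natriuretic peptide, LYZF2, BANF1, NME1 and RPL15, and it had only 2 detected endothelial markers. At resolution 0.4 a cluster with these leading genes and 245 graft nuclei was named endothelial-like, by PECAM1, CLDN5 and ESAM. The naming of such nuclei thus changed with the resolution. Endothelial markers summed to 39.6 UMIs per 10000 in cluster 9, against 75.2 in the graft's main endothelial-like cluster (cluster 16). Smooth muscle markers summed to 1.67 and fibroblast markers to 3.99 in cluster 9. The same cluster held 1996 of 2758 graft SPARC UMIs (72.4%) and 600 of 885 graft ELN UMIs (67.8%). In distended dog 2, another unnamed cluster led by KIT and NRCAM (cluster 15, 100 nuclei) held 145 of 431 THBS1 UMIs, a rate of 20.4 per 10000. The 131 graft nuclei of that cluster gave 9.59.

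THBS2 lay mostly in fibroblast-like nuclei of distended dog 1, which held 120 of its 122 UMIs, 94 of them in a cluster led by BMP7 and ITGA11 (cluster 4). Other fibroblast-like nuclei gave 0 and 10 UMIs in controls, 0 in distended dog 2 and 9 in the graft. THBS2 was called lower in grafted than in distended fibroblast-like nuclei (log2 fold change -4.57, SE 1.35, adjusted p = 0.0348, edgeR). The graft level of 2.49 CPM lay between the distended libraries, which stood at 94.8 and 0 CPM, so that the call rests on dog 1. It was lost with RLE scaling (0.0577), without a filter (0.0505), with the dog as a block (0.373) and with the dominant features left out (0.0718), and DESeq2 gave no adjusted p.

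For SPARC, endothelial-like nuclei gave 12.1 and 2.03 UMIs per 10000 in controls, 3.00 and 1.37 in distended vein and 1.04 in the graft, and the graft was the lowest. The log2 fold change in grafted against control was -2.93 (SE 1.09, adjusted p = 0.152, edgeR), and it passed without control dog 2 (-3.65, adjusted p = 0.0491). The high control dog 1 had 107 of its 135 endothelial-like SPARC UMIs in 25 nuclei of a cluster led by GM2A and OLFML2A (cluster 5), at 18.8 per 10000, and the 24 nuclei of distended dog 1 in that cluster gave 13.3. In distended dog 2, 26 of 78 SPARC UMIs came from 1 nucleus. POSTN was found in few nuclei of any class. Control dog 1 had 6 of its 7 UMIs in 1 smooth muscle-like nucleus, distended dog 1 all 17 in 6 fibroblast-like nuclei, and the graft 31 in 14 fibroblast-like and 14 in 4 smooth muscle-like nuclei. The 88 graft UMIs of SPP1 were spread over 83 nuclei, with 33 UMIs in macrophage/monocyte-like, 23 in fibroblast-like and 19 in endothelial-like nuclei. The share of graft nuclei with SPP1 was 5.80%, 2.95% and 1.94% in these classes.

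VCAN rose in endothelial-like nuclei of the graft. These nuclei gave 3 and 11 UMIs in controls, 45 and 46 in distended vein and 4939 in the graft, or 16.5, 48.0, 58.0, 310 and 638 CPM in the same order. The graft was above all other libraries, both distended libraries were above the controls (as for 16.3% of all genes tested there), and distended dog 2 was well above distended dog 1. Control vein averaged 32.3 ± 22.3 CPM (SD, n = 2), and the log2 fold change of grafted against control was 4.27 (SE 0.97, adjusted p = 0.0130, edgeR). VCAN was found in 2 of 93 and 8 of 403 control nuclei, 15 of 491 and 20 of 61 distended nuclei and 741 of 928 graft nuclei. Thinned to equal depth, the shares were 1.08% and 1.81%, 0.815% and 9.84%, and 17.2%. The call also passed with DESeq2 (0.00991) and with the dog as a block (0.000629). It was lost without control dog 1 (0.146), with at least 200 genes per nucleus (0.150), with thinned sums (0.122) and at Leiden resolutions of 0.4 (0.417) and 1.5 (0.0740). Of the graft's endothelial-like nuclei 926 of 928 lay in a cluster of their own (cluster 16), whereas control nuclei lay in clusters 2, 5, 7 and 8. In endothelial-like sums, macrophage/monocyte markers stood at 0 and 4.37 CPM in controls, 16.7 and 20.2 in distended vein and 43.2 in the graft. Endothelial markers stood at 8481 and 9314 CPM in controls, 9122 and 4295 in distended vein and 4156 in the graft. Macrophage/monocyte markers rose with VCAN, and endothelial markers were lowest in distended dog 2 and the graft, where VCAN was highest. The part of both in the result was not tested. In the graft 79.2% of fibroblast-like and 86.1% of smooth muscle-like nuclei also held a VCAN UMI. Among the graft classes named at the resolution used, none of at least 20 nuclei that should lack the gene was at hand as background.

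Macrophage/monocyte-like nuclei held the largest part of graft VCAN, 7811 of 17358 UMIs in 469 of 500 nuclei. The rate was 63.0 (61.6 to 64.4) per 10000 in the graft, 18.7 (13.6 to 25.0) in the 60 nuclei of control dog 2 and 4.98 (3.26 to 7.30) in the 101 nuclei of distended dog 1. The 6 such nuclei of distended dog 2 gave 37.7 (20.1 to 64.5). Most of these graft nuclei (457) lay in a cluster that carried 11 macrophage/monocyte and 10 neutrophil markers (cluster 13), where VCAN was in 97.2% of nuclei. The other graft nuclei of this class, in the CD209 and TIMD4 cluster shared with control and distended vein (cluster 10), gave 17.7. In these 43 graft nuclei T or NK cell markers (79 UMIs) were as frequent as macrophage/monocyte markers (73 UMIs), and at resolution 1.5 a T or NK cell-like cluster held 40 graft nuclei and the CD209 and TIMD4 cluster 4. In the 44 nuclei of control dog 2 in cluster 10, neutrophil markers gave 54 UMIs and macrophage/monocyte markers 52. The part of these other leukocyte markers in the VCAN rates was not tested. In the graft, macrophage/monocyte markers summed to 11.7 UMIs per 10000 in cluster 13 and to 0.783 in the endothelial-like cluster 16, where VCAN stood at 65.4 and 11.5. The 43 graft nuclei of cluster 10, with their T or NK cell markers, thus gave a higher VCAN rate (17.7) than cluster 16. The part of RNA from outside the nuclei in these rates was not tested.

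Fibroblast-like nuclei held 9 of 37 VCAN UMIs in control dog 1, 416 of 479 in control dog 2, 1125 of 1211 in distended dog 1 and 84 of 370 in distended dog 2. Their rates were 10.3 (4.70 to 19.5) and 39.0 (35.3 to 42.9) per 10000 in controls, 14.7 (13.9 to 15.6) and 30.2 (24.1 to 37.4) in distended vein and 12.3 (11.8 to 12.9) in the graft. The graft lay within the range of the controls (log2 fold change -1.27, SE 1.35, adjusted p = 0.759, edgeR). In smooth muscle-like nuclei VCAN gave 1.94 (0.630 to 4.52) and 4.44 (0.915 to 13) in controls, 3.37 (1.62 to 6.20) in distended dog 1 and 24.0 (20.4 to 27.9) in the graft. The graft interval did not overlap the others. In distended dog 1, 0 of 119 lymphatic endothelial-like nuclei held a VCAN UMI, which allows a share of nuclei with a UMI, not of expressing nuclei, of up to 2.52%. That share was 44.8% in fibroblast-like nuclei, at median depths of 562 and 508 UMIs.

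ELN fell in fibroblast-like nuclei of the graft. Its UMIs were 21 in 48 and 298 in 387 control nuclei, 1968 in 1211 and 0 in 51 distended nuclei and 74 in 780 graft nuclei. In CPM, controls stood at 856 and 1696 (1276 ± 594, SD, n = 2), distended vein at 1555 and 0, and the graft at 20.5. The controls and distended dog 1 were all well above the graft, and distended dog 2 was below it. The log2 fold change of grafted against control was -5.97 (SE 1.75, adjusted p = 0.0367, edgeR), and that against distended vein was -5.26 (SE 1.68, adjusted p = 0.0577). The first call was lost with DESeq2 (0.627), without a filter (0.283), without control dog 1 (0.230) or dog 2 (0.864), with the dog as a block (0.185), with the dominant features left out (0.130), with at least 200 genes per nucleus (0.274) and with thinned sums (0.505). The second passed without distended dog 2 (0.00794).

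The fibroblast class itself differed between libraries. The graft's fibroblast-like nuclei formed a cluster led by SV2B and GAP43 (cluster 14, 775 of 780 nuclei), and 38 of the 51 of distended dog 2 lay in cluster 18, led by NR4A2. Summed fibroblast markers stood at 5218 and 9706 CPM in fibroblast-like nuclei of controls, 11201 and 2596 in distended vein and 1534 in the graft. Of 15 tested fibroblast markers, which also served to name the clusters, 5 were called lower and 1 higher in grafted against control. ELN moved together with these markers, and their part in the result was not tested. Among the fibroblast-like clusters of distended dog 1, ELN was highest in the cluster led by C7 and TRPM3 (cluster 6), at 38.8 per 10000 against 14.5 in cluster 4 and 14.2 in cluster 3.

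Outside fibroblast-like nuclei the graft values of ELN were below the controls too, with no call at the settings used throughout. Smooth muscle-like nuclei gave 6.20 (3.55 to 10.1) and 5.91 (1.61 to 15.1) per 10000 in controls, 9.10 (6.0 to 13.2) in distended dog 1 and 1 UMI in the graft, 0.146 (0.0037 to 0.814). Endothelial-like nuclei gave 2.52 and 4.98 in controls, 2.90 and 0.137 in distended vein and 0.411 in the graft (log2 fold change -3.42, SE 1.12, adjusted p = 0.0946, edgeR). That comparison passed with the dog as a block (0.0357), with RLE scaling (0.0421) and without distended dog 1 (0.0102) or dog 2 (0.0430). In distended dog 1, ELN was in 55.2% of fibroblast-like and 7.56% of lymphatic endothelial-like nuclei. In the graft it was in 6.67% of fibroblast-like nuclei and 12.1% of the deeper endothelial-like ones, at median depths of 1801.5 and 3992 UMIs.

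TNXB resembled ELN in its levels. In fibroblast-like nuclei it gave 10.3 (4.70 to 19.5) and 27.6 (24.6 to 31) per 10000 in controls, 19.5 (18.5 to 20.5) and 2.16 (0.792 to 4.70) in distended vein and 0.894 (0.757 to 1.05) in the graft. The log2 fold change of grafted against control was -4.64 (SE 1.61, adjusted p = 0.109, edgeR), so it was not called. In endothelial-like nuclei it gave 5.12 and 8.64 in controls, 5.23 and 1.10 in distended vein and 0.538 in the graft. That difference, -3.91 (SE 1.15), narrowly missed the threshold (adjusted p = 0.0549) and passed with DESeq2 (0.00796), with RLE scaling (0.0233), with the dog as a block (0.0370) and without distended dog 1 (0.00920) or dog 2 (0.0340). Lymphatic endothelial-like nuclei of distended dog 1 held TNXB in 30.3% and fibroblast-like ones in 61.8%.

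In fibroblast-like nuclei 7 of the 9 genes could be tested (POSTN and SPP1 were too rare), and in endothelial-like nuclei 6 (without THBS2 as well). In grafted against control fibroblast-like nuclei 2 of 7 were called, beside 159 of 7217 genes (2.2%), 1 of them higher beside 0.402% of genes and 1 lower beside 1.8% (29 genes higher and 130 lower, or 51 and 105 with RLE scaling). In grafted against distended fibroblast-like nuclei 1 of 7 was called, beside 2.66% of genes (0.915% higher and 1.75% lower, 66 and 126 genes, or 69 and 79 with RLE scaling and 166 and 30 with the dog as a block). Without distended dog 2 this became 4 of 7 (TNC, TNXB, THBS2 and ELN) beside 2261 genes, and without distended dog 1 it became 0 beside 1 gene. In grafted against control endothelial-like nuclei 1 of 6 was called, beside 2.94% of genes. It was higher, beside 1.53% of genes called higher and 1.41% called lower (125 and 115 genes, or 33 and 103 with DESeq2 and 12 and 383 with thinned sums). In grafted against distended 0 of 6 were called, beside 0.735% (0.49% higher and 0.245% lower, 40 and 20 genes, or 1 and 265 with thinned sums). In the last comparison 3 of the 6 had an unadjusted edgeR p under 0.05, and DESeq2 called 0. By overlap alone, grafted fibroblast-like nuclei stood above both controls for 2 of 7 genes (46.2% of all genes) and below both for 3 (20.7%), and above both distended libraries for 2 (40.3%) and below for 2 (24.9%). Grafted endothelial-like nuclei stood above both controls for 3 of 6 (41.9%) and below for 3 (31%), and above both distended libraries for 2 (38.1%) and below for 2 (26.7%). None of these counts was read as a result about the 9 genes. These comparisons share libraries and are not independent of each other, and the fit takes the spread of the single graft library from the rest. In the fibroblast-like fit the weight of the spread shared over genes (prior degrees of freedom) was infinite. A gene's own spread between libraries thus did not count there, also for TNC, ELN and THBS2. That weight was 31.7 in the endothelial-like fit and 7.29 in the whole-vein fit.

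Distension alone gave no call among the 9 genes in any population. edgeR called 0 of 7217 genes (0%) in fibroblast-like and 0 of 8168 (0%) in endothelial-like nuclei, where 86 and 261 had an unadjusted p under 0.05, and DESeq2 called 0 of the 9 genes in each population. Without distended dog 1, 56 genes were called in endothelial-like nuclei, with ELN among them. In endothelial-like nuclei 3 of the 6 tested genes had an unadjusted edgeR p under 0.05, namely VCAN (log2 fold change 2.42, SE 0.88), THBS1 (1.88, SE 0.85) and SPARC (-1.72, SE 0.80). Both distended libraries lay above both controls for 1 of 7 genes in fibroblast-like nuclei (TNC, 19.6% of all genes) and below for 0 (7.58%), and for 1 of 6 (VCAN) and 0 (12.2%) in endothelial-like nuclei. In whole vein SPP1 was above (12.9% of all genes) and TNC below. At a floor of 3 counts over the controls, the limit was 0.931-fold for SPP1 there and 0.701-fold for TNC in fibroblast-like nuclei. Neither limit shows a higher level. For the other 7 genes the dogs went opposite ways in whole vein. On a log2 scale with 1 CPM added, distended minus control was 1.54 in dog 1 and -4.30 in dog 2 for TNXB, and 2.26 and -4.06 for ELN. It was -1.36 and 2.71 for THBS1, and 3.86 and -3.03 for THBS2. TNC was lower in distended vein of both dogs (-1.77 and -0.94), in which it was like 10.3% of all tested genes whose distended libraries both lay below both controls. Summed fibroblast markers went the same way as TNXB and ELN, at 719 and 3259 CPM in controls and 5581 and 626 in distended vein, and their part in the dogs' difference was not tested.

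**Figure D4:**
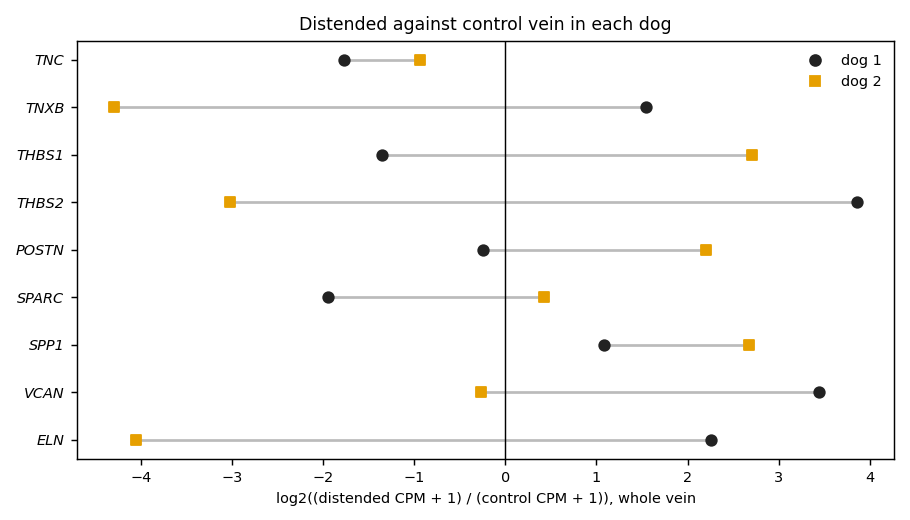
Distended against control whole vein in each dog, as log2((distended CPM + 1) / (control CPM + 1)), for the 9 genes. TNXB, THBS2 and ELN lay above 0 in dog 1 and below it in dog 2, THBS1 the reverse, and only TNC lay below 0 in both; POSTN and SPP1 rest on 2 to 24 UMIs in a dog.

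The partners of these proteins were followed as 4 lists. Over all genes, 0.402% were called higher and 1.8% lower in grafted against control fibroblast-like nuclei, and 1.53% and 1.41% in endothelial-like ones. Against distended vein these shares were 0.915% and 1.75%, and 0.49% and 0.245%. Genes of the lists are given at the main settings only, and whether their calls hold at other settings was not tested. Of 20 genes for versican and hyaluronan partners, 13 were tested in fibroblast-like and 10 in endothelial-like nuclei. ADAMTS4, a protease that cleaves versican, rose in fibroblast-like nuclei of the graft against controls (adjusted p = 0.0367, edgeR), with 0 UMIs in both controls, 3 and 7 in distended vein and 463 in the graft. ADAMTS9, another versican-cleaving protease, rose in endothelial-like nuclei, at 49.6 and 39.3 CPM in controls, 91.4 and 390.5 in distended vein and 665 in the graft (log2 fold change 3.91, SE 0.93, adjusted p = 0.0163). Each was the 1 call of its list in grafted against control in its class. ADAMTS15 fell in grafted against distended fibroblast-like nuclei (-5.46, SE 1.47, adjusted p = 0.0182), with 75 and 0 UMIs in distended vein and 3 in the graft. In whole vein HAPLN1, the link protein that holds versican on hyaluronan, gave 0 UMIs in both controls, 2 and 1 in distended vein and 247 in the graft, and was not called (adjusted p = 0.561, edgeR, against control).

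Among 21 elastic fibre genes 13 were tested in fibroblast-like nuclei and 1 rose against control, LTBP1, which tethers latent TGF-beta to fibrillin. It stood at 0 and 11.4 CPM in controls, 79.0 and 295 in distended vein and 461 in the graft (log2 fold change 5.59, SE 1.52, adjusted p = 0.0244, edgeR). LTBP4, which takes part in elastic fibre assembly, fell in endothelial-like nuclei, from 171 and 100.4 CPM in controls to 7.62 in the graft (-4.14, SE 1.01, adjusted p = 0.0191), as the 1 call of 10 tested. The list's median log2 fold change in grafted against control was -2.04 in fibroblast-like nuclei, beside 0.28 over all genes, and 0.53 in endothelial-like nuclei, beside 0.10. MFAP5 and LTBP3 were not called in any comparison.

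Among 21 receptors of these proteins 13 were tested in each class and 1 was called, in endothelial-like nuclei. ITGA8, the integrin alpha chain whose heterodimer binds tenascin-C and osteopontin, gave 5 and 1 UMIs in controls, 5 and 0 in distended vein and 1421 in the graft. ITGA8 was itself among the leading genes of the graft's endothelial-like cluster, which was formed with it. It was called higher against control (log2 fold change 3.59, SE 0.92, adjusted p = 0.0252, edgeR) and against distended vein (5.19, SE 0.98, adjusted p = 0.00403). ITGB3 (2.58, SE 1.03) missed the threshold against control (adjusted p = 0.190), and SDC4 was too rare to test there. Among 20 other matricellular genes 9 were tested in fibroblast-like nuclei. CCN5, a CCN family member also known as WISP2, fell against control (-6.02, SE 1.61, adjusted p = 0.0210) and against distended vein (-5.57, SE 1.52, adjusted p = 0.0187). It rests on 0 and 10 UMIs in controls, 55 and 0 in distended vein and 2 in the graft. SPARCL1, a SPARC relative, fell against distended vein (-5.14, SE 1.40, adjusted p = 0.0187), with 99 and 0 UMIs in distended vein and 5 in the graft, and was not called against control (adjusted p = 0.220). For ADAMTS15, CCN5 and SPARCL1 the graft lay between the distended libraries, so that these calls rest on dog 1, and for CCN5 it lay between the controls as well. COMP, a cartilage thrombospondin, gave 25 and 9 UMIs in whole control vein, 10 and 2 in distended vein and 7 in the much deeper graft library. In CPM its levels were 27.4 and 15.1, 3.73 and 3.60, and 0.322, with the graft the lowest. CCN3 gave 16 and 9, 50 and 0, and 18 UMIs, or 17.5 and 15.1, 18.6 and 0, and 0.829 CPM. Its graft level was below both controls and between the distended libraries. Neither gene was called in whole vein.

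Over 18 sums of 1 cell class in 1 library, with at least 20 nuclei each, the genes whose level followed a member most closely were described by Pearson's r of log2(CPM + 1) among 7082 candidates. THBS1 had the closest companion, ANKRD10 (r = 0.951), followed by SPP1 with RELL2 (0.916), TNXB with AHNAK2 (0.899) and SPARC with MAOA (0.873) and FN1, fibronectin (0.860). ELN was followed most closely by ZBTB20 (0.840), VCAN by UPP1 (0.836), TNC by NEXN, an actin-binding protein of muscle (0.829), POSTN by DGKI (0.810) and then TNC (0.718), and THBS2 by C1H19orf47 (0.774). Between members the highest r was that of TNC with POSTN, then of TNXB with ELN (0.656), and the lowest was that of TNC with TNXB (-0.763). POSTN gave 0 UMIs in every endothelial-like sum and SPP1 gave 0 in every control sum, so their r values rest in part on zeros and few UMIs. The sums share libraries, depth and cell makeup, so these values are descriptions of the 18 sums.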

How the data were processed

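Nuclei of snap-frozen vein were profiled with 10x 3' chemistry, and the authors deposited raw UMI counts per gene and barcode for each library, made with Cell Ranger 7.0.0 per the submitters' processing notes. A genome build was not given in the sources used here, and coordinates were left out. Counting is per library, so its depth sets the precision, and counting intervals (95%, exact) cover counting error only. Suffixes were stripped from gene names and equal names summed. Features with no gene name held 0.588% to 11.5% of counts. Of 7391 barcodes, 6855 with at least 100 genes were kept. Nuclei were clustered in scanpy 1.11.5 (2000 variable genes without the 9 members, 20 components, 15 neighbours, Leiden resolution 0.8) and named by 15 marker lists. Scrublet marked 35 doublets (0.511%), kept in the main values. The members and all lists were chosen with earlier results of these data known.

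UMIs were summed per library and class, and the 3 comparisons were fitted in edgeR 4.0.16 (TMM, filterByExpr, quasi-likelihood, all libraries, two-sided, adjusted p under 0.05), checked on simulated counts. With a fixed simulated spread, grafted against control recovered 38% of 4-fold changes in whole vein, 27% in fibroblast-like and 39% in endothelial-like sums. For 16-fold changes these shares were 94%, 89% and 78%. Unchanged genes gave 11, 3 and 5 false calls in the same order. Most simulated 4-fold changes were thus missed. The simulated spread was the same for every gene and was not taken from the data, so these shares need not hold for the real counts. Alternatives were DESeq2 1.42.0, RLE scaling, no filter, leaving out each control and distended library in turn, the dog as a block, other nucleus filters, thinning and other resolutions. A shared number marks the same dog, so the libraries are paired by animal. Deviations of the same dog correlated at -0.303 across 13165 genes, with only 2 pairs. Each group of 2 holds 2 animals and the graft 1. Named genes were all 9 members, from each of 4 related lists the called genes and the 3 with the largest whole-vein log2 change in grafted against control (at least 50 UMIs), and the genes most like each member (up to 3).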

Additional observations from a re-analysis of the deposited data

Results flagged for a closer look

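For 4 of the 9 genes the distended and control libraries of the 2 dogs differed in opposite directions in whole vein, by at least 1 on the log2 scale in each dog and with at least 10 UMIs in each dog. Distended minus control on the log2(CPM + 1) scale was 6.89 higher in dog 1 than in dog 2 for THBS2, 6.32 higher for ELN and 5.83 higher for TNXB. For THBS1 the difference of dog 1 minus dog 2 was -4.07. With 1 library of each kind in a dog, these differences between the dogs were not tested.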

How the results depend on the processing

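The graft is 1 library, 2 residual degrees of freedom remain, and smooth muscle-like nuclei were not tested. Over single genes, 739 values kept direction and side of the threshold, 49 reversed, 24 lost and 21 gained a call, and 35 values without a test moved. The cause of these changes was not tested. RLE scaling moved the median log2 fold change of all genes in grafted against control fibroblast-like sums from 0.28 to 0.65, and thinned sums moved it to -4.34. Where all libraries of a group were at 0, a fitted value depends on the prior count.

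In counts of genes called, DESeq2 gave 1, 115 and 30 in whole vein (distended against control, grafted against control, grafted against distended, as in all counts here). It gave 52 and 27 for the graft comparisons in fibroblast-like and 136 and 29 in endothelial-like nuclei. RLE scaling gave 2 in distended against control and 127 in grafted against distended endothelial-like nuclei. Without a filter the counts were 11, 286 and 142 in whole vein, 22 and 1304 in fibroblast-like nuclei (grafted), and 7 (distended against control) and 169 (grafted against distended) in endothelial-like nuclei. With the dominant features left out they were 70 and 67 in fibroblast-like (grafted) and 5, 368 and 171 in endothelial-like nuclei. With at least 200 genes per nucleus they were 37 and 419 in fibroblast-like and 0 and 0 in endothelial-like nuclei (grafted). Thinned sums gave 0 and 0 in fibroblast-like and 395 and 266 in endothelial-like nuclei. Thinned, 12 were higher and 383 lower in grafted against control and 1 and 265 against distended. Endothelial-like counts in the graft comparisons were 3 and 2 at resolution 0.4 and 98 and 34 at resolution 1.5.

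With the dog as a replicate block, grafted against control fibroblast-like nuclei had 4 calls and grafted against distended endothelial-like nuclei 122. In distended against control, the block turned ELN in whole vein to -0.87, and THBS2 and VCAN in fibroblast-like nuclei to -0.28 and 0.13. Of calls on the 9 genes it ended those of TNC, ELN and THBS2 in fibroblast-like nuclei and added TNXB and ELN in endothelial-like nuclei, and it changed no other.

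Leaving out each control and distended library in turn (the graft was in every fit) gave 0 to 219, 0 to 649 and 0 to 358 calls in whole vein, 0 to 2, 3 to 266 and 1 to 2261 in fibroblast-like and 0 to 56, 77 to 421 and 3 to 260 in endothelial-like nuclei. Reversed log2 fold changes in distended against control whole vein ranged from -3.39 to 1.34 for ELN, -0.545 to 8.05 for POSTN, -1.94 to 0.48 for SPARC, -0.84 to 2.00 for THBS1, -2.63 to 3.50 for THBS2, -3.68 to 0.63 for TNXB and -0.45 to 3.77 for VCAN. In grafted against control whole vein they ranged from -1.60 to 7.01 for POSTN and -2.03 to 0.39 for SPARC, and against distended vein from -4.31 to 0.068 for ELN and -0.39 to 1.85 for SPP1. In fibroblast-like nuclei, distended against control ranged from -13.24 to 0.39 for ELN, -1.06 to 0.51 for SPARC, -1.48 to 8.79 for THBS1, -3.46 to 1.00 for TNXB and -1.17 to 1.65 for VCAN. Grafted against control ranged there from -4.36 to 4.70 for THBS2 and -1.94 to 0.87 for VCAN, and against distended from -6.21 to 7.32 for ELN and -1.33 to 0.12 for SPARC. In endothelial-like nuclei, distended against control ranged from -2.68 to 0.043 for SPARC and -6.41 to 4.62 for TNC, and grafted against distended from -3.00 to 1.67 for ELN and -0.51 to 1.61 for THBS1.

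Other reversals were in distended against control unless said. ELN in whole vein was -0.010 with DESeq2, -0.0080 with RLE scaling and -0.036 with thinned sums. SPARC in fibroblast-like nuclei was 0.0040 with RLE scaling, 0.16 without a filter, 0.25 with the dominant features left out and 0.26 with at least 200 genes. TNC in fibroblast-like nuclei was -0.20 with the dominant features left out and -0.94 with at least 200 genes. TNC in endothelial-like nuclei was 1.31 and 0.65 in the same settings and 0.41 at resolution 1.5. THBS1 in endothelial-like nuclei was -0.016 at resolution 0.4, and -0.75 in grafted against distended with thinned sums. VCAN in fibroblast-like nuclei was 0.27 with thinned sums. SPARC in grafted against distended whole vein was 0.66 with thinned sums and 0.24 without a filter.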
